A study of Mus musculus with 2 samples.

Results

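A set of 9 genes that carry or make the autonomic signals of the heart were described in embryonic mouse heart: the receptors Adrb1, Adra1a, Adra1b, Chrm2 and Adora1, the adenylyl cyclases Adcy5 and Adcy6, and the catecholamine enzymes Th and Dbh. They were chosen by name, and all 9 were found among the 43346 mouse genes of the tables. The tissue was whole heart from B6NCrl mouse embryos (a C57BL/6N substrain) at embryonic day 10.5, with no treatment or genetic change named. There was 1 group of 2 libraries, the labels' biological replicates: replicate 1 pooled hearts of 69 embryos and replicate 2 those of 51, with males and females mixed in each. Each library was made from 10 ng of total RNA longer than 200 nt, with ERCC controls, a set of artificial RNAs of known quantity. With no other condition there was no comparison to test, so no p-value is given, and whether the spread between the pools is biological or technical was not tested.

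Noradrenaline and adrenaline act on beta receptors, which couple through the stimulatory G protein to adenylyl cyclase, the enzyme that makes cyclic AMP. Alpha-1 receptors couple to phospholipase C. The M2 muscarinic receptor (Chrm2) and the A1 adenosine receptor (Adora1) couple to inhibitory G proteins, which restrain adenylyl cyclase and open a potassium channel that slows the beat. Adcy5 and Adcy6 are the calcium-inhibited cyclases of heart muscle. Tyrosine hydroxylase (Th) catalyses the rate-limiting step of catecholamine synthesis and dopamine beta-hydroxylase (Dbh) turns dopamine into noradrenaline. Mouse embryos that lack either enzyme mostly die before birth with signs of a failing heart, and nerves reach the heart only later than the stage studied here.

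The libraries held 45205713 and 41070978 expected counts (estimated reads per gene, not normalised), of which 43295923 and 39786163 lay on mouse genes. The pools differed far beyond counting error (chi-square of 99.77 per degree of freedom over genes), so they were counted as separate samples. All 8 listed heart muscle markers were detected, and their summed level was 16646 TPM in replicate 1 and 26550 TPM in replicate 2. TPM, the deposited abundance, is corrected for length and library size, so levels of different genes can be set side by side. Markers of liver primordium, an organ next to the heart, summed to 1613 TPM in replicate 1 and 82.4 TPM in replicate 2, with Afp at 736.7 and 27.6 TPM. Heart muscle RNA was therefore measured in both pools, and liver markers differed between them.

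By TPM the 9 genes spanned from Adcy6 to Adra1a. Adcy6 stood at 14.5 TPM in replicate 1 and 20.9 in replicate 2, or 17.7 ± 4.54 (SD, n = 2 pools, as for every mean here). Adora1 followed at 6.65 and 6.80 TPM, or 6.73 ± 0.106. Adra1b at 2.60 and 5.44 TPM (4.02 ± 2.01), Adcy5 at 3.20 and 4.31 (3.76 ± 0.785), Chrm2 at 1.68 and 3.96 (2.82 ± 1.61) and Th at 2.00 and 1.88 (1.94 ± 0.0849) formed a middle group. Adrb1 at 0.56 and 0.90 TPM (0.73 ± 0.24) and Dbh at 0.58 and 0.18 (0.38 ± 0.283) were lower, and Adra1a, at 0.06 and 0.04 TPM (0.05 ± 0.0141), was the lowest. Across the order, neighbours overlapped between Adra1b and Adcy5, Adcy5 and Chrm2, Chrm2 and Th, and Adrb1 and Dbh, while the steps from Adcy6 to Adora1, from Adora1 to Adra1b, from Th to Adrb1 and from Dbh to Adra1a lay beyond the pool values. Of the 36 pairs of these genes, 31 (86.1%) had values that did not overlap. Beside them, 91.1% of all pairs among protein-coding genes with at least 1 TPM in each pool did not. Adrb1, Dbh and Adra1a lie under that level but enter the 36 pairs, so the shares cover unlike sets. All overlapping pairs except Adrb1 and Dbh lay among the other 6 genes. Of the 9, 6 reached 1 TPM in both pools, beside 57% of all 21474 protein-coding genes. By rank, 30.1% of protein-coding genes lay at or above the mean of Adcy6, 43.7% at or above Adora1, 61.1% at or above Adrb1 and 75.1% at or above Adra1a.

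**Figure D1:**
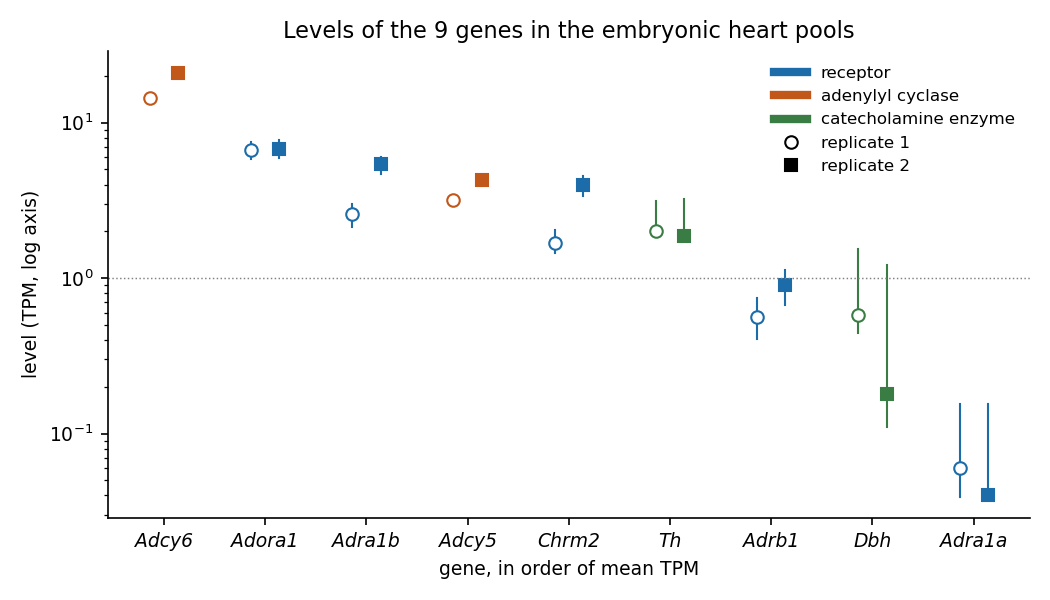
TPM of each of the 9 genes (log axis), with a point per pool, replicate 1 and replicate 2, and the deposited interval of TPM as a line. Adcy6 is the highest in both pools and Adra1a the lowest. For Adrb1, Adra1b, Chrm2, Adcy5 and Adcy6 replicate 2 lies above replicate 1, as it does for Adora1 by a small amount (6.65 and 6.80).

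The 2 cyclases, which make cyclic AMP, outweighed the 5 receptors and the 2 enzymes. Their summed level was 17.7 TPM in replicate 1 and 25.2 in replicate 2 (55.6% and 56.8% of the 9 genes' TPM). The 5 receptors summed to 11.6 and 17.1 TPM (36.3% and 38.6%) and the 2 enzymes to 2.58 and 2.06 TPM (8.11% and 4.64%). In expected counts, where long genes weigh more, the cyclases held 70.4% and 71.5%, the receptors 26.4% and 26.8%, and the enzymes 3.18% and 1.72%. The order of the 3 classes was the same on both scales in both pools, and by TPM the lowest cyclase sum (17.7) lay just above the highest receptor sum (17.1).

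**Figure D2:**
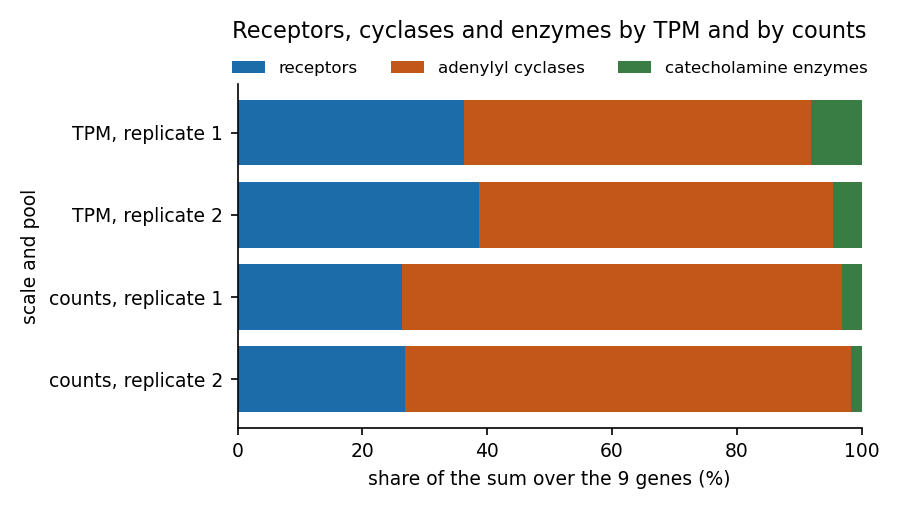
Stacked bars give the share (%) of the 9 genes' summed TPM and summed expected counts held by the 5 receptors, 2 adenylyl cyclases and 2 catecholamine enzymes, with a bar per pool and scale. Cyclases hold 55.6% and 56.8% by TPM and 70.4% and 71.5% by counts.

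Adora1 was the most abundant of the 5 chosen receptors per length. It encodes the A1 adenosine receptor, lies on mm10 chromosome 1 from 134199223 to 134235431 on the minus strand (ENSMUSG00000042429.8), and had 718 and 657 expected counts. It held 61.7% and 65.1% of the TPM of the 4 adenosine receptor genes. Its level differed little between pools: on TMM-scaled counts (edgeR's correction for library composition, prior count 0.5) the log2 ratio of replicate 2 to replicate 1 was 0.12, a fold of 1.09 with a 95% counting interval of 0.978 to 1.21, which covers counting error only. The other adenosine receptors were Adora2a (2.67 and 2.98 TPM), which couples to the stimulatory G protein, and Adora2b (1.45 and 0.67). Mybph, on the opposite strand, shares 2010 bases with Adora1 and had 18.6 and 13.6 counts. Fewer cells of a type and less RNA per cell cannot be told apart in whole tissue, here and for every ratio between the pools.

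The transcripts of Adora1 fall at 2 groups of start sites, and the sequence before the group that held all assigned reads is shown. Reads were divided over Adora1-201, Adora1-202 and Adora1-204, whose starts lie from 134235364 to 134235431. Adora1-203, which starts at 134234578, had 0 counts in both pools. The leading transcript by estimate differed between the pools. Adora1-202 held 42.4% of TPM in replicate 1 and 30.6% in replicate 2, and Adora1-201 held 38.5% and 54.9%. In replicate 1 their deposited intervals overlapped (2.23 to 3.06 TPM for Adora1-202, 2.04 to 3.05 for Adora1-201), so which led there is not settled. The RefSeq start nearest to these lies 26 bases upstream of that of Adora1-202, and the 250 bases before it (GRCm38.p6, which is mm10, chr1:134235458-134235707, minus strand) are printed with GC boxes in capitals. In them, 3 GC boxes, at 25, 19 and 13 bases before the RefSeq start, were found, searched as GGGCGG on both strands. The other RefSeq window of the gene lies inside its annotated exons, so it is not printed.
Adora1: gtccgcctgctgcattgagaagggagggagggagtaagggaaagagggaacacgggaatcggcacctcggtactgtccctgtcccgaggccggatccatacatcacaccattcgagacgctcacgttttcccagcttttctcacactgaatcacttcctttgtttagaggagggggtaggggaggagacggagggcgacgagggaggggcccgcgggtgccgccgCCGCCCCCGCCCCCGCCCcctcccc

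Adra1b, the alpha-1B receptor, was the most abundant of the 2 alpha-1 receptors chosen. It lies on chromosome 11 from 43774606 to 43901210 on the minus strand (ENSMUSG00000050541.10) and had 194 and 378 counts. It stood at 2.60 TPM in replicate 1 (deposited interval 2.13 to 3.02) and at 5.44 in replicate 2 (4.71 to 6.06), and these intervals did not overlap. The log2 ratio was 1.21, a fold of 2.31 with a counting interval of 1.94 to 2.77, and 8.62% of the 17547 tested genes lay as far from 0. Adra1b held 15.9% and 30.4% of the TPM of the 9 adrenergic receptor genes. Adra1a, the alpha-1A receptor (chromosome 14, 66635251 to 66771168, plus strand; ENSMUSG00000045875.8), had 5 counts in each pool (exact Poisson interval 1.62 to 11.7), and Adra1b was the higher in both pools. The size of that gap rests on these few counts: the log2 difference was 6.26 ± 1.17 by TPM, 5.76 by expected counts, 5.37 by the posterior mean and 2.20 with 1 TPM added to each value. Those 5 counts fell on Adra1a-205 in replicate 1 and on Adra1a-202 in replicate 2, so its start site cannot be told at this depth.

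Adra1b has 2 annotated start sites far apart, and the sequence upstream of each is shown because the estimated reads split between them. The downstream start (43836332) held 73.6% and 78.7% of counts (143 and 297) and the upstream start (43901210) 26.4% and 21.3% (51.2 and 80.6). The 2 transcripts from the downstream start, Adra1b-202 and Adra1b-204, have identical sequences in GENCODE M21 and each got 71.4 and 148.7 counts, so those reads cannot be told apart between them. Adra1b-203, from the upstream start, held 38.8% and 32.4% of TPM. The printed stretches are the 250 bases before the RefSeq start nearest to each, on GRCm38.p6 at chr11:43836490-43836739 (downstream) and chr11:43901238-43901487 (upstream), both on the minus strand. Those RefSeq starts lie 157 and 27 bases upstream of the GENCODE starts, so neither stretch reaches the start to which the reads were assigned. The 300-base window that contains the downstream stretch had 71.3% GC and 2 GC boxes, 1 of them in the printed stretch, 185 bases before the RefSeq start; that of the upstream start had 42.3% GC and 0 GC boxes. GC boxes occurred in 35.7% of the 32851 mouse windows of the same length, whose median GC was 52.7%. Capitals mark GC boxes, and no match says only that the letters are not in the window.
Adra1b downstream: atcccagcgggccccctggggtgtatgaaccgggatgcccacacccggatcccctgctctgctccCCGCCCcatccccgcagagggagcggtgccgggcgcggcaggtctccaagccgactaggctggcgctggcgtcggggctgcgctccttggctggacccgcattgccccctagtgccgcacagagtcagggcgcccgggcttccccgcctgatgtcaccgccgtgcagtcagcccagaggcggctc
Adra1b upstream: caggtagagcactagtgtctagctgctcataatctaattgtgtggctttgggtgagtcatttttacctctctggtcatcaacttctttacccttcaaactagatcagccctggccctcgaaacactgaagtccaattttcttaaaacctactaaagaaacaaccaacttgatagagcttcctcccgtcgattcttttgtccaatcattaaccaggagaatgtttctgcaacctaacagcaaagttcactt

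Chrm2 is the M2 muscarinic receptor, on chromosome 6 from 36388084 to 36528414 on the plus strand (ENSMUSG00000045613.5). It had 270 and 477 counts, and the intervals of its TPM, 1.45 to 2.03 around 1.68 and 3.37 to 4.56 around 3.96, did not overlap. The log2 ratio was 1.07, a fold of 2.10 with a counting interval of 1.81 to 2.45. Chrm2 was the leading muscarinic gene, with 89.4% and 97.2% of the counts of the 5 genes; by TPM it held 68.3% and 93.8%. The other 4 were low, with Chrm4 at 0.47 and 0.14 TPM and Chrm3 at 0.28 and 0.07, and Chrm5 had 0 counts in replicate 1, which allows up to 3. Adora1 exceeded Chrm2 in both pools (log2 Chrm2 over Adora1 -1.38 ± 0.85). Nearly all Chrm2 counts lay on Chrm2-202 (99.3% and 96.8%), although the short model Chrm2-201 held 5.78% and 23.7% of TPM, from 1.76 and 15.4 counts on 697 nt. On the opposite strand the noncoding 9330158H04Rik overlaps Chrm2 by 2108 bases and had 29 and 37.5 counts.

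**Figure D3:**
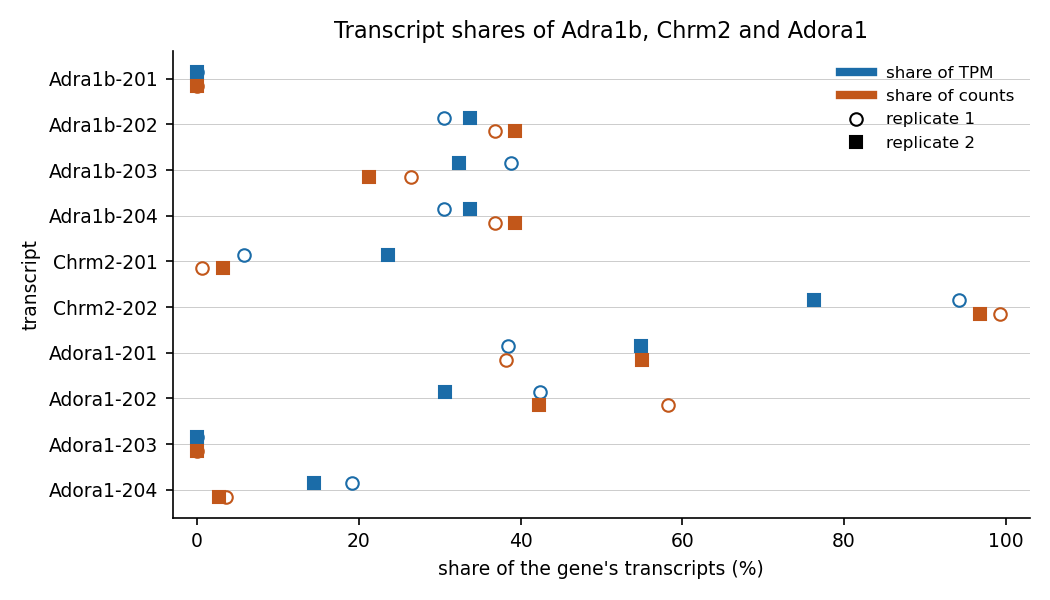
Share (%) of the gene's TPM (blue) and of its expected counts (orange) on each transcript of Adra1b, Chrm2 and Adora1, with open circles for replicate 1 and squares for replicate 2. Chrm2-202 holds 99.3% and 96.8% of counts, and the estimated shares of Adora1-201 and Adora1-202 change order between the pools.

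Adrb1, the beta-1 receptor of the adult heart (chromosome 19, 56722199 to 56733113, plus strand; ENSMUSG00000035283.4), had 41 and 59 counts. Its TPM was 0.56 (interval 0.405 to 0.742) and 0.90 (0.67 to 1.12), so the intervals overlap while the values differ, with a log2 ratio of 0.77 and a fold of 1.70 (counting interval 1.13 to 2.62). Adrb1 lay below Adra1b (log2 difference -2.41 ± 0.27) and below Chrm2 (-1.86 ± 0.39) in both pools. Among all 9 adrenergic receptor genes, Adra2b was the most abundant (7.63 and 8.56 TPM, 46.5% and 47.8% of the family), and Adrb1 held 3.41% and 5.03%.

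**Figure D4:**
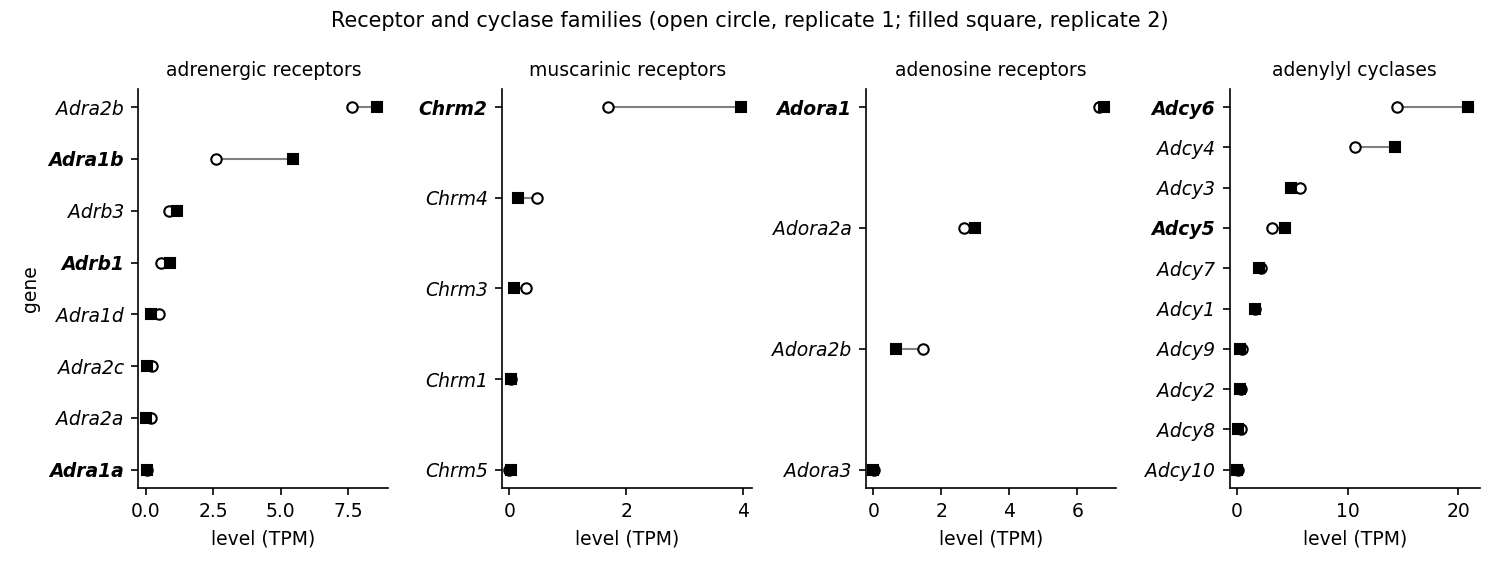
Level (TPM) of genes of the adrenergic, muscarinic and adenosine receptor and adenylyl cyclase families, with an open circle for replicate 1, a filled square for replicate 2 and the described genes in bold. Adra2b leads the adrenergic receptors at 7.63 and 8.56 TPM, and Chrm2, Adora1 and Adcy6 lead their families.

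Adcy6 exceeded Adcy5 by 4.53 and 4.85 times in TPM, a log2 difference of 2.23 ± 0.07, and by 3.88 and 4.15 times in counts. Adcy6 (chromosome 15, 98589973 to 98610076, minus strand; ENSMUSG00000022994.8) had 2606 and 3392 counts, and Adcy5 (chromosome 16, 35154877 to 35305738, plus strand; ENSMUSG00000022840.8) 672 and 817. Both were read from 1 transcript model each. Of the 10 adenylyl cyclase genes Adcy6 held 37.1% and 43% of TPM, Adcy4 27.4% and 29.3% and Adcy5 8.21% and 8.86%, and Adcy4 stood at 10.7 and 14.3 TPM. The pool log2 ratios of Adcy6 and Adcy5 were 0.63 and 0.53, folds of 1.55 (counting interval 1.47 to 1.63) and 1.45 (1.30 to 1.60). An antisense gene, Gm29331, overlaps Adcy6 and had 89.6 and 93 counts.

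Th (chromosome 7, 142892752 to 142931128, minus strand; ENSMUSG00000000214.6) had 105 and 89 counts and 2.00 and 1.88 TPM (intervals 1.89 to 3.13 and 1.80 to 3.23). Its log2 ratio was 0.01, a fold of 1.01 with a counting interval of 0.751 to 1.35. Dbh (chromosome 2, 27165233 to 27183200, plus strand; ENSMUSG00000000889.8) had 43 and 12 counts. Its deposited intervals for the gene as a whole, 0.441 to 1.53 and 0.11 to 1.21 TPM, overlapped. Those of Dbh-201, the transcript that held all its counts, were 0.412 to 0.749 and 0.0948 to 0.293 TPM and did not overlap. The log2 ratio of Dbh was -1.56, a fold of 0.340 with a counting interval of 0.159 to 0.641. Dbh over Th was -2.59 ± 1.13 on the log2 scale by TPM. That size rests on the few Dbh counts: it was -2.09 by expected counts, -1.87 by the posterior mean and -1.11 with 1 TPM added to each value. All Th counts lay on Th-201 and all Dbh counts on Dbh-201; the 5 other Th models, among them those from the upstream start, had 0. The sequence before the start of Th is printed because it carries the match to the cyclic AMP response element, TGACGTCA (capitals), 45 bases before the RefSeq start, which lies 19 bases downstream of the start of Th-201; the stretch is chr7:142899996-142900245 on the minus strand of GRCm38.p6. That motif occurred in 1.79% of windows and its core TGACG, which it contains on both strands, in 20.8%. The core was found in 3 of the 9 windows of these genes, those of Th, Adrb1 (90 bases before the RefSeq start) and Dbh (222 bases before it). The Dbh window lies wholly inside annotated exons of Dbh, and its RefSeq start is 274 bases downstream of the start of Dbh-201. The Dbh match is therefore inside that transcript and not upstream of it. The match is a description only.
Th: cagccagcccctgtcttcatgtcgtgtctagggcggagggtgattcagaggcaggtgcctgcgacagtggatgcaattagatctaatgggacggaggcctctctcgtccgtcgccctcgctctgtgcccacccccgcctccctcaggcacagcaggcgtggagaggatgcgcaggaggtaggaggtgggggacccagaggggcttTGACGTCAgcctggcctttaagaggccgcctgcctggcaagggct

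Sympathetic neuroblast markers were higher in replicate 1, as was Dbh: their summed level was 44.9 TPM in replicate 1 and 22.7 in replicate 2, 8 of the 9 tested were higher in replicate 1, 7 of them past 2-fold (beside 8.59% of all tested genes), and the median log2 ratio was -1.42. Neuronal markers were higher in replicate 1 for 5 of 5 tested (median -1.14, summed level 16.6 and 10.2 TPM) and neural crest markers for 3 of 5 (median -1, 20.4 and 13.7 TPM). Gata3 stood at 18.1 and 7.70 TPM and Hand2 at 14.5 and 9.11; 7 of the 11 lay under 1 TPM in both pools, and none was at 0 in either. Ret, a receptor of developing autonomic neurons, had 169 and 8 counts (chosen after its values were seen). The liver (median -4.64), macrophage (-1.43) and pacemaker (-1.39) lists were also higher in replicate 1. Th had a ratio of 0.01, and which cells held the RNA of Th and Dbh was not tested. The part of any of these cell types in the Dbh ratio was not tested either.

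Between the pools, 7 of the 8 tested genes (mean count of 10 or more, which leaves out Adra1a) had a ratio above 0, beside 49.7% of all 17547 tested genes, with a median of 0.58 and with Th, at 0.01, turning to -0.09 on deposited TPM. Of the 8, 2 were past 2-fold higher in replicate 2 (Adra1b and Chrm2), beside 3.71% of all tested genes, and 1 was past 2-fold higher in replicate 1 (Dbh), beside 8.59%. Under ERCC spike-in scaling the median of all genes moved by 0.32, the shares past 2-fold were 8.53% and 5.82%, and 4 of the 8 were past 2-fold, with Adrb1 added at 1.09. The heart muscle markers were all higher in replicate 2 (8 of 8, median 0.85) and liver markers all lower there (10 of 10, median -4.64); the part of either in these ratios was not tested. Endothelial (0.44) and smooth muscle (0.43) lists had medians above 0, the epicardial one was at -0.05, and the macrophage one was at -1.43. The smooth muscle genes did not go 1 way: 3 of the 4 were higher in replicate 2. The other, Myh11 (chosen after its values were seen), was past 2-fold higher in replicate 1 (112 and 34 counts, log2 -1.46).

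**Figure D5:**
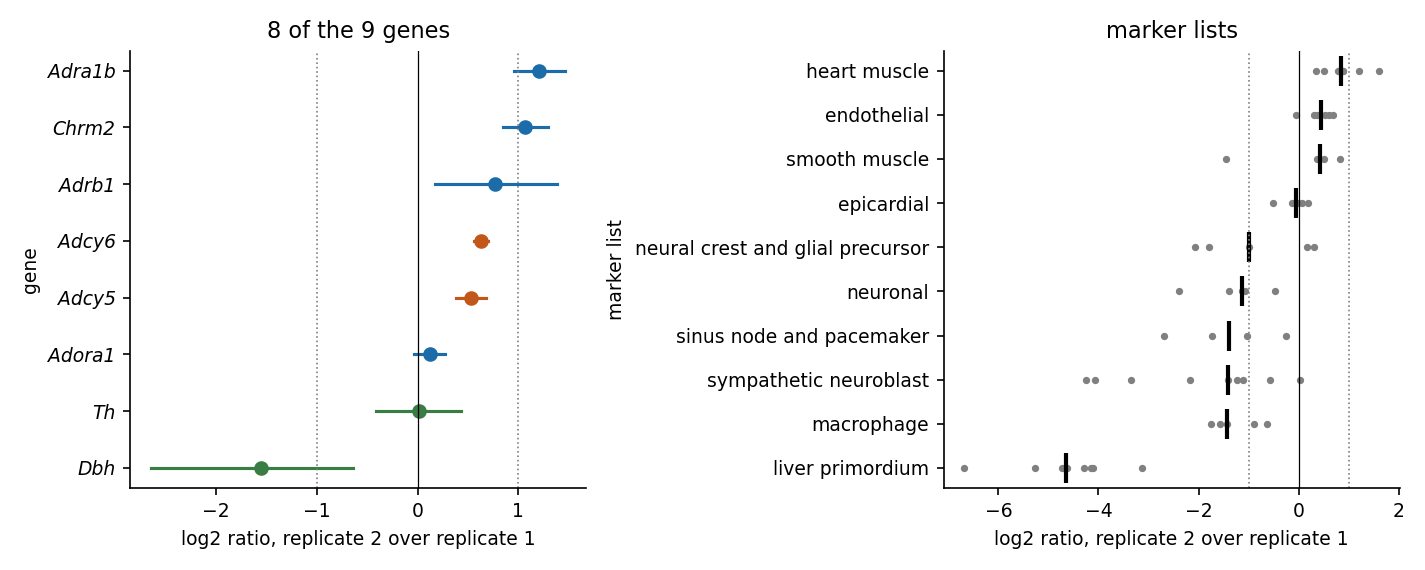
Log2 ratio of replicate 2 to replicate 1 (TMM-scaled expected counts) for the 8 tested genes, with 95% counting intervals (left), and for the genes of 10 marker lists, a point per gene and a bar at the median (right). Dotted lines mark 2-fold. Adra1b and Chrm2 lie above 1 and Dbh below -1, and the liver list lies lowest, with a median of -4.64.

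The rest of the pathway was read from 12 gene lists of 78 genes, 77 of them in the tables, of which 53 reached 1 TPM in both pools. Of 69 tested, 31 had the higher value in replicate 2, beside 49.7% of all tested genes, and 38 in replicate 1. Past 2-fold were 1 in replicate 2, beside 3.71% of all tested genes, and 10 in replicate 1, beside 8.59%. Of the other receptors 2 of 6 adrenergic, 0 of 4 muscarinic and 1 of 3 adenosine genes reached 1 TPM in both pools, and of the other cyclases 4 of 8, beside 57% of all protein-coding genes. Of the 6 other adrenergic receptors 4 were past 2-fold higher in replicate 1, beside 8.59% of all tested genes. Among these 4, Adra1d (27 and 9 counts), Adra2a (23 and 1) and Adra2c (24 and 5) had few counts (chosen after their values were seen). That share of all genes depends on counts: it was 17.1% with no filter and 3.74% at a mean count of 100 or more.

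G protein alpha subunits were all detected (8 of 8), beside 57% of all protein-coding genes, the share for every list below. They were led by Gnas, the stimulatory subunit, at 934.1 and 815.6 TPM and Gnai2, an inhibitory one, at 335.6 and 304 TPM. All 6 protein kinase A subunits were detected, with Prkar1a at 303.3 and 374.9 TPM and Prkaca at 129.7 and 134.3. Cyclic AMP phosphodiesterases (6 of 8 detected) were led by Pde4d (20.7 and 25.5 TPM) and Pde4b (11.5 and 17.1), and receptor kinases and arrestins (6 of 7) by Grk6 (34.5 and 23.8). Arrb1 (10.9 and 15.2) came next by the mean over pools, but lay below Arrb2 (16.1) and Grk2 (13.9) in replicate 1. Of the muscarinic-gated potassium channel and RGS list (7 of 7), the channel subunit Kcnj5 stood at 19.3 and 32.6 TPM and Rgs3, a GTPase accelerator, at 50.7 and 54.8. In it, 2 RGS genes were past 2-fold higher in replicate 1 (beside 8.59% of all tested genes): Rgs5 (16.1 and 3 TPM, log2 -2.35) and Rgs4 (2.97 and 1.03, -1.38). Gnaz (3.33 and 1.31 TPM, -1.07) and Adora2b (log2 -1.01) were also past 2-fold higher in replicate 1. Of the 69, Ache alone, acetylcholinesterase, was past 2-fold higher in replicate 2 (8.94 and 20.4 TPM, log2 1.27), beside 3.71% of all tested genes. The related Bche stood at 9.23 and 14.9. Catecholamine synthesis beyond Th and Dbh was detected for 7 of 7, led by Qdpr (89.9 and 85.9 TPM) and Pts (52.8 and 61.8), which regenerate or make the cofactor of Th; Ddc, the next enzyme (28.8 and 35.5), and Pnmt, which turns noradrenaline into adrenaline (4.18 and 4.35), were chosen after their values were seen. Of the uptake, storage and breakdown genes 4 of 8 were detected, among them Maoa, which breaks catecholamines down, at 9.77 and 7.97 TPM. In the acetylcholine list 2 of 5 were detected, and Chat, which makes acetylcholine, had 7 and 4 counts (chosen after its values were seen).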

How the data were processed

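Total RNA of 2 heart pools was measured; groups and replicates came from the labels. The deposited tables give, per gene and transcript, an expected count, a posterior mean count, TPM, FPKM, the percent of a gene's TPM a transcript holds, and a credibility interval of TPM, which the authors deposited as bounds and which is treated here as a score. The interval is that of the posterior mean, so a TPM can lie outside it. Per the labels and the file headers, the assembly was mm10 and the annotation M4; for program, version and strand setting: not given in the sources used here. Overlapping genes are therefore uncertain. Names and positions came from GENCODE M21 (42462 of 43346 genes matched), promoter windows from RefSeq (7 of the 9 genes).

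The members and lists were chosen with earlier results of these data known. Ratios used expected counts rounded to whole numbers, TMM scaling in edgeR 4.0.16 (R 4.3.3), a prior count of 0.5 and a mean count of at least 10; past 2-fold was called. Counting intervals are exact binomial at 95%, and a count of 0 allows 3; both cover counting error only, and no molecular identifiers are named in the labels. The ratio script was tested on simulated data. Python 3.11.15 (pandas 2.3.3, scipy 1.17.1) did the rest, and DESeq2 1.42.0 the alternative size factors. Named were all 9 genes, the 2 most abundant genes of each list, list genes past 2-fold with a mean count of 50 or more, both genes of the 8 preset pairs, and transcripts with at least 10% of their gene; other names are said to be chosen later. Pde2a was not analysed here, and some genes that this rule names are not reported here.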

Additional observations from a re-analysis of the deposited data

How the results depend on the processing

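No paired analysis was possible because there was 1 group of 2 pools, which shares no replicate number with another group. Members at 1 TPM in each pool used numbered 6 throughout, and all 8 preset pairs stayed beyond the spread under every alternative run. A lone pool has no spread, so leaving out either also left 36 of 36 member pairs apart, and adding 1 TPM keeps the order of the values. The number of all genes past 2-fold was 2159, but 6747 with no filter on low counts and 731 at a mean count of 100 or more, because different genes are tested. Dividing TPM by the 8 heart muscle markers, an alternative chosen after seeing the data, moved the median of all genes to -0.78, so counts taken against 0 change by construction: 5320 genes and 1 member (Dbh) were past 2-fold, and 3 members were above 0. Spike-in scaling gave 4 members past 2-fold. With deposited TPM, Th turned to -0.09 and 6 members were higher in replicate 2. Depth limits Adra1a (5 counts in each pool) and Dbh (12 counts in replicate 2).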

Other observations

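Divided by the summed TPM of the 8 heart muscle markers, a scaling chosen after the data were seen, Adrb1 stood at 0.336 in replicate 1 and 0.339 in replicate 2 per 10000 TPM of those markers. The median log2 ratio of all genes on this scale was -0.78, so a ratio there is read against that value and not against 0. The potassium channel subunits Kcnj5 (11.6 and 12.3) and Kcnj3 (1.29 and 1.43) had log2 ratios of 0.08 and 0.15. Chrm2 (1.01 and 1.49) and Adra1b (1.56 and 2.05) were at 0.56 and 0.39. Adora1 (4.00 and 2.56, log2 -0.64) and Th (1.20 and 0.708, -0.76) lay near the median of all genes, and Dbh (0.348 and 0.0678, -2.36) below it. With 2 pools these are single ratios, and no test was made. Of the pacemaker list, all 4 genes were higher in replicate 1, 3 of them past 2-fold (beside 8.59% of all tested genes), with Tbx3 at 29 and 13 TPM and Isl1 at 22.7 and 5.94. The pacemaker channel gene Hcn4 (chosen after its values were seen) was not past 2-fold, at 3.17 and 2.48 TPM with a log2 ratio of -0.25.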
